A study of Mus musculus with 20 samples.

Results

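Antiviral restriction factors are host proteins that block a step in the life of a virus inside the cell that makes them. Under this name, 10 genes that interferon induces were followed here: Mx1, Mx2, Rsad2, Bst2, Samhd1, Apobec3, Xaf1, Trim30a, Ddx60 and Rnf213. The name is used loosely, since Ddx60, Trim30a and Xaf1 are described below by sensing, signalling and cell death. The genes were taken from the count table by symbol, 10 of its 39056 genes. The rule that picks them uses no measured value, but the list was drawn up with earlier results of these data known. All 10 passed the filter on low counts and were tested. RNA was sequenced from the left hippocampus of 20 female C57BL/6 mice aged 12 to 13 months, 1 library for each mouse. Each of 4 groups held 5 mice, with miR-34a either present (WT) or knocked out (KO) on a background that was either Non-Tg or Tg-SwDI. Tg-SwDI mice carry human APP with the Swedish, Dutch and Iowa mutations under the Thy1 promoter, which is active mainly in neurons, and develop amyloid in the brain and its vessels. Non-Tg mice lack this transgene. In KO mice (miR-34a-/-) the microRNA is deleted throughout the body from conception, so that an effect in microglia cannot be told apart from one in other cells. WT mice are miR-34a+/+. A mouse is called by its group and the replicate number that its label carries.

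Type I interferons bind a receptor made of Ifnar1 and Ifnar2, whose kinases activate Stat2. A complex that holds Stat2 and Irf9 then enters the nucleus and binds the interferon-stimulated response element (ISRE) in front of its target genes, and GAS is another element found before interferon targets. Restriction factors are among these targets. In the brain, an interferon-responsive state has been described in a part of the microglia near amyloid and with age, although most cell types can express these genes when interferon reaches them.

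The 10 genes lie on 7 chromosomes of the mm10 build, and only the Mx genes are neighbours. Mx1 spans chromosome 16 from 97447035 to 97462907 on the minus strand, and Mx2 lies beside it from 97535308 to 97560900 on the plus strand. Both encode dynamin-like GTPases, and most inbred laboratory strains, C57BL/6 included, carry alleles that make no functional protein. The annotation lists Mx2 as a polymorphic pseudogene, so the levels below are of transcripts only. Rsad2 (chromosome 12, 26442746 to 26456452, minus strand), Samhd1 (chromosome 2, 157097533 to 157135265, minus strand) and Apobec3 (chromosome 15, 79891659 to 79915906, plus strand) encode enzymes that act on nucleotides or nucleic acid. Bst2 lies on chromosome 8 from 71534255 to 71537456 on the minus strand and Ddx60 on the same chromosome from 61928087 to 62038244 on the plus strand. Trim30a (chromosome 7, 104409025 to 104465193, minus strand), Rnf213 (chromosome 11, 119393100 to 119487418, plus strand) and Xaf1 (chromosome 11, 72301629 to 72313733, plus strand) complete the list.

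Promoter windows of 300 bases, from 250 before to 50 after a transcript start, were read from RefSeq (GRCm38.p6) for 8 of the 10 genes. Mx1 and Mx2 had no entry. The ISRE was searched as GAAANNGAAA and GAS as TTCNNNGAA, on both strands. An ISRE stood in a window of 5 of the 8 genes (Rsad2, Bst2, Apobec3, Trim30a and Ddx60) and in 3.44% of all 32851 windows. Shares over all here count windows and not genes, and the 8 genes had 10 windows. A GAS match stood in the windows of Bst2 and Samhd1 and in 8.30% of all windows. Bst2 held 2 ISRE matches, and the first of them, the one marked below, overlaps both the second and the GAS match, while the windows of Xaf1 and Rnf213 held neither motif. The upstream stretches with an ISRE are shown because the element is known from interferon-induced genes in general. Each is 30 bases on the strand of the gene, with the ISRE in capitals (on the other strand it reads TTTC, 2 bases, TTTC).
Rsad2, chr12:26456553-26456582: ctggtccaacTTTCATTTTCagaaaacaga
Bst2, chr8:71537583-71537612: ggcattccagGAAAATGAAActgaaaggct
Apobec3, chr15:79892258-79892287: catcagttagTTTCCCTTTCtctttgcgat
Trim30a, chr7:104465210-104465239: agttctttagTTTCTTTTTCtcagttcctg
Ddx60, chr8:61928024-61928053: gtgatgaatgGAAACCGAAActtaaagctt
Ddx60, chr8:61928058-61928087: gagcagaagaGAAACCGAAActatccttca

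The ISRE began 120 bases before the transcript start in Rsad2, 130 in Bst2, 140 in the first of 2 starts of Apobec3, 36 in the upstream start of Trim30a, and 53 and 19 in Ddx60. The same core lay 2 bases after the other start of Trim30a, and the second start of Apobec3 had none. A match is only a match of letters, and no match says only that these letters are not in the window.

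The microRNA deleted in the KO mice is encoded on chromosome 4 (150068473 to 150068494, plus strand), and its mature strand is shown with its seed, bases 2 to 8, in capitals.
miR-34a-5p: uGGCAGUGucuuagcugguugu

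Among the 3' untranslated regions of the 10 genes, which were 244 (Bst2) to 2660 bases (Rsad2) long in the longest coding transcript, only those of Ddx60 and Rnf213 held a match to this seed. Each held 1, and both were 8mers, which pair with the whole seed and have an A opposite the first base. An 8mer was found in 5.97% of the 14683 genes tested that have such a region, and any seed match in 23.2%. The sites are shown in 30 bases with the match in capitals.
Ddx60, chr8:62037745-62037774, base 622 of 1110: aatccactgtaCACTGCCActcattcaata
Rnf213, chr11:119486715-119486744, base 568 of 1260: ccaccatgagcCACTGCCAaccactcactg

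Libraries held 19549622 to 21066868 counts on genes. Thy1, whose promoter drives the transgene, was at 685 to 769 CPM in Non-Tg mice, at 1905 to 2328 CPM in WT Tg-SwDI mice and at 2454 to 3318 CPM in KO Tg-SwDI mice, so that the KO and WT Tg-SwDI mice did not overlap in it. Xist was at 326 to 666 CPM in the 20 mice. KO Tg-SwDI replicate 8 stood apart, with 14.6% of its counts on mitochondrial genes against 6.94% to 8.76% in the other 19 libraries. Its TMM scaling factor was 0.901 against 0.981 to 1.031 in the others. Its hippocampal neuron markers summed to 3086 CPM against 2063 to 2453 CPM. Choroid plexus, a tissue next to the hippocampus, was unevenly included: Ttr, its main transcript, was at 1691 to 3898 CPM in 11 libraries (3 WT Non-Tg, 4 WT Tg-SwDI and 4 KO Tg-SwDI) and at 29.8 to 277 CPM in the other 9, among them all 5 KO Non-Tg libraries. Results below are therefore also given without replicate 8, with the choroid plexus level as a covariate, and within the libraries with Ttr over 1000 CPM. The part of either in the results was not tested.

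Levels are given as CPM, TMM-normalized counts scaled to a common library size, in the order of the replicate numbers, and a log2 fold change of 1 is a doubling. In WT Non-Tg mice, per kilobase of exon, Bst2 was the highest of the 10 at 4.79 ± 2.30 CPM per kb (SD, n = 5), followed by Samhd1 at 1.91 ± 0.159 CPM per kb (SD, n = 5). Trim30a, Rnf213 and Xaf1 lay together at 0.988 ± 0.440 CPM per kb (SD, n = 5), 0.973 ± 0.264 CPM per kb (SD, n = 5) and 0.962 ± 0.0692 CPM per kb (SD, n = 5). Rsad2 followed at 0.598 ± 0.217 CPM per kb (SD, n = 5) and Apobec3 at 0.352 ± 0.0686 CPM per kb (SD, n = 5). The lowest were Mx2 at 0.215 ± 0.0869 CPM per kb (SD, n = 5), Ddx60 at 0.165 ± 0.0673 CPM per kb (SD, n = 5) and Mx1 at 0.114 ± 0.0743 CPM per kb (SD, n = 5). Among neighbours in this order, only Samhd1 and Trim30a, and Xaf1 and Rsad2, did not overlap between their 5 mice.

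**Figure D1:**
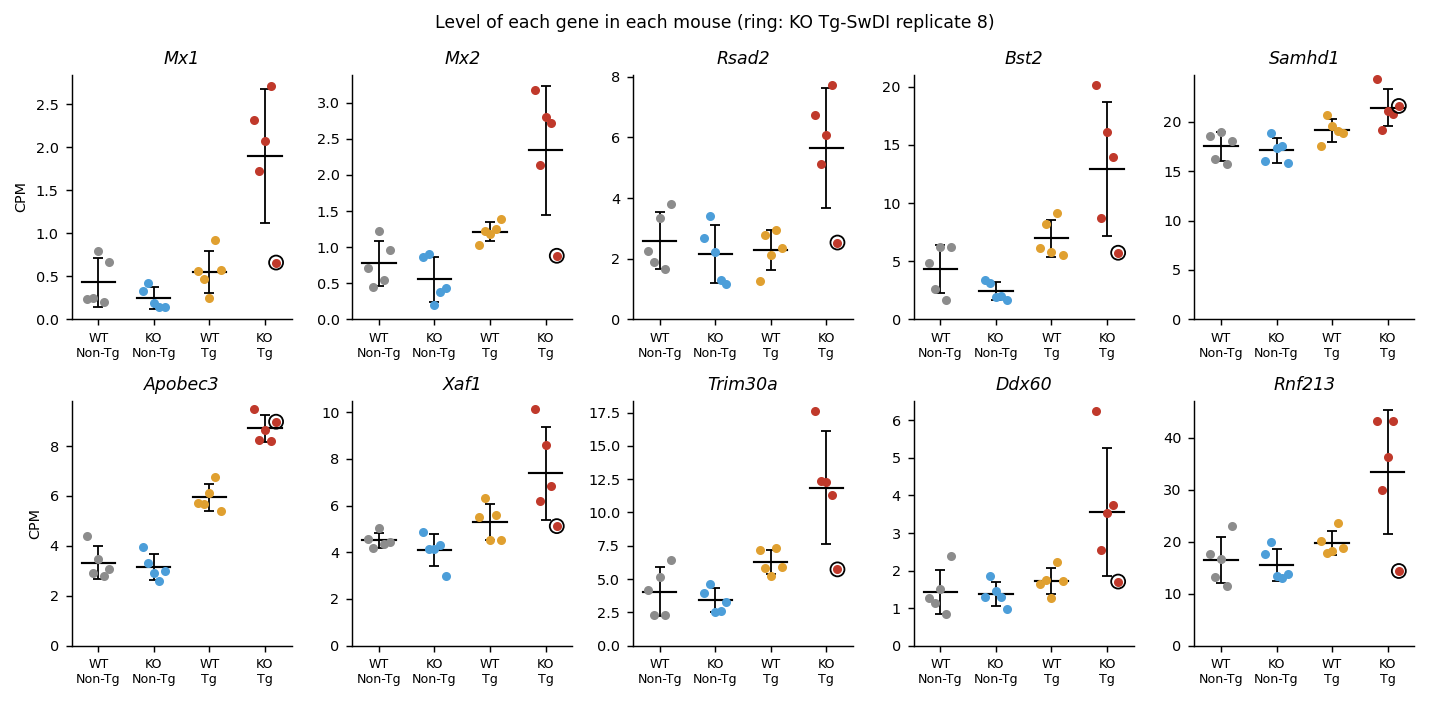
Level of each of the 10 genes in CPM (vertical axes from 0) in each of the 20 mice, by group, with the group mean and SD in black and a ring around KO Tg-SwDI replicate 8. In 7 of the 10 genes the other 4 KO Tg-SwDI mice lie above all 5 WT Tg-SwDI mice, and replicate 8 lies at or below the highest WT Tg-SwDI mouse in 8 of 10.

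The first comparison asked what the loss of miR-34a changes in mice with amyloid. These KO mice were also higher in Thy1, without overlap (2454 to 3318 CPM against 1905 to 2328 CPM). The authors report more amyloid-beta in their cortex by immunoassay, but no difference in stained deposits in the dentate gyrus. Loss of miR-34a and a higher transgene or amyloid level thus cannot be told apart here, and the part of either was not tested. All 10 genes had a higher estimate in miR-34a KO than in miR-34a WT Tg-SwDI mice, and 4 of them, Mx1, Rsad2, Apobec3 and Ddx60, rose at an adjusted p under 0.05 over 16107 genes. Over all genes, 1.48% were called higher in this comparison. The median log2 fold change of the 10 genes was 0.91, against 0.00 (0.003) over all genes tested. The comparisons below share groups, so their values are not independent of each other. Only Apobec3 had no overlap between the 5 KO and the 5 WT mice, a separation that 2.04% of all genes showed upward. In bulk tissue, more cells of a type and more RNA per cell cannot be told apart.

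Mx1 and Mx2 encode GTPases that, where functional, trap viral nucleocapsids. Mx1 was at 2.32, 1.72, 2.08, 2.72 and 0.661 CPM in KO Tg-SwDI mice (replicates 1, 2, 3, 5 and 8) and at 0.563, 0.473, 0.245, 0.918 and 0.574 CPM in WT Tg-SwDI mice (replicates 3 to 7). Of the 5 KO mice, 4 lay above every WT mouse, and replicate 8 lay among the WT mice. This was a log2 fold change of 1.77 (SE 0.36, adjusted p = 0.0135), from counts of 12 to 53 in KO and 5 to 19 in WT Tg-SwDI libraries. Mx2 was at 3.17, 2.14, 2.80, 2.72 and 0.881 CPM in KO and at 1.03, 1.23, 1.18, 1.26 and 1.39 CPM in WT Tg-SwDI mice, with replicate 8 below all 5 WT mice and the other 4 above them. Its estimate, a log2 fold change of 0.95 (SE 0.29, adjusted p = 0.0838), did not pass. Without replicate 8 it was 1.15 with an adjusted p of 0.0154.

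Rsad2, Samhd1 and Apobec3 encode enzymes that act on the building blocks or genomes of viruses. Rsad2 (viperin), which makes a chain-terminating nucleotide, was at 6.72, 5.11, 6.09, 7.74 and 2.53 CPM in KO and at 1.27, 2.79, 2.11, 2.95 and 2.34 CPM in WT Tg-SwDI mice. Replicate 8 again lay among the WT mice and the other 4 KO mice above them, with a log2 fold change of 1.30 (SE 0.32, adjusted p = 0.0409). Apobec3, a cytidine deaminase that mutates retroviral DNA, was at 9.47, 8.24, 8.65, 8.20 and 8.98 CPM in KO and at 5.73, 5.68, 6.14, 6.76 and 5.41 CPM in WT Tg-SwDI mice. Here all 5 KO mice, replicate 8 included, lay above all 5 WT mice, with a log2 fold change of 0.55 (SE 0.12, adjusted p = 0.0145). The KO mice differed little among themselves in Apobec3, at 8.71 ± 0.530 CPM (SD, n = 5). Samhd1, which breaks down the nucleotides that viruses need for DNA synthesis, was at 24.3, 19.2, 21.1, 20.8 and 21.6 CPM in KO and at 17.5, 20.7, 19.6, 19.1 and 18.8 CPM in WT Tg-SwDI mice. Its value, a log2 fold change of 0.16 (SE 0.07, adjusted p = 0.227), did not pass.

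Bst2 (tetherin) holds budding virus particles at the cell membrane, and Ddx60 is a helicase that aids the sensing of viral RNA. Bst2 was at 20.1, 8.71, 16.1, 13.9 and 5.73 CPM in KO and at 6.15, 8.18, 5.79, 9.13 and 5.55 CPM in WT Tg-SwDI mice. Replicates 1, 3 and 5 lay above every WT mouse, while replicates 2 and 8 lay in their range, and a log2 fold change of 0.90 (SE 0.34, adjusted p = 0.162) did not pass. Ddx60 was at 6.25, 2.56, 3.53, 3.74 and 1.71 CPM in KO and at 1.64, 1.75, 1.28, 2.22 and 1.72 CPM in WT Tg-SwDI mice, with replicate 1 the highest by far. Its value, a log2 fold change of 1.05 (SE 0.28, adjusted p = 0.0492), was just inside the threshold.

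Trim30a and Rnf213 are ubiquitin ligases, the first a brake on NF-kappaB signalling and the second a very large protein that coats intracellular pathogens, and Xaf1 promotes cell death after interferon. Trim30a was at 17.6, 12.4, 12.3, 11.3 and 5.73 CPM in KO and at 7.18, 5.82, 5.25, 7.34 and 5.88 CPM in WT Tg-SwDI mice. Rnf213 was at 43.2, 30, 36.2, 43.3 and 14.4 CPM in KO and at 20.2, 17.7, 18.3, 23.5 and 18.8 CPM in WT Tg-SwDI mice. In both genes replicates 1, 2, 3 and 5 lay above all WT mice, and in Rnf213 replicate 8 lay below all of them. Neither passed, with a log2 fold change of 0.92 (SE 0.28, adjusted p = 0.0854) for Trim30a and a log2 fold change of 0.76 (SE 0.24, adjusted p = 0.106) for Rnf213. Xaf1 was at 10.1, 6.21, 8.60, 6.82 and 5.12 CPM in KO and at 5.49, 6.34, 4.52, 5.60 and 4.54 CPM in WT Tg-SwDI mice. It gave a log2 fold change of 0.48 (SE 0.15, adjusted p = 0.0838), which did not pass.

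**Figure D2:**
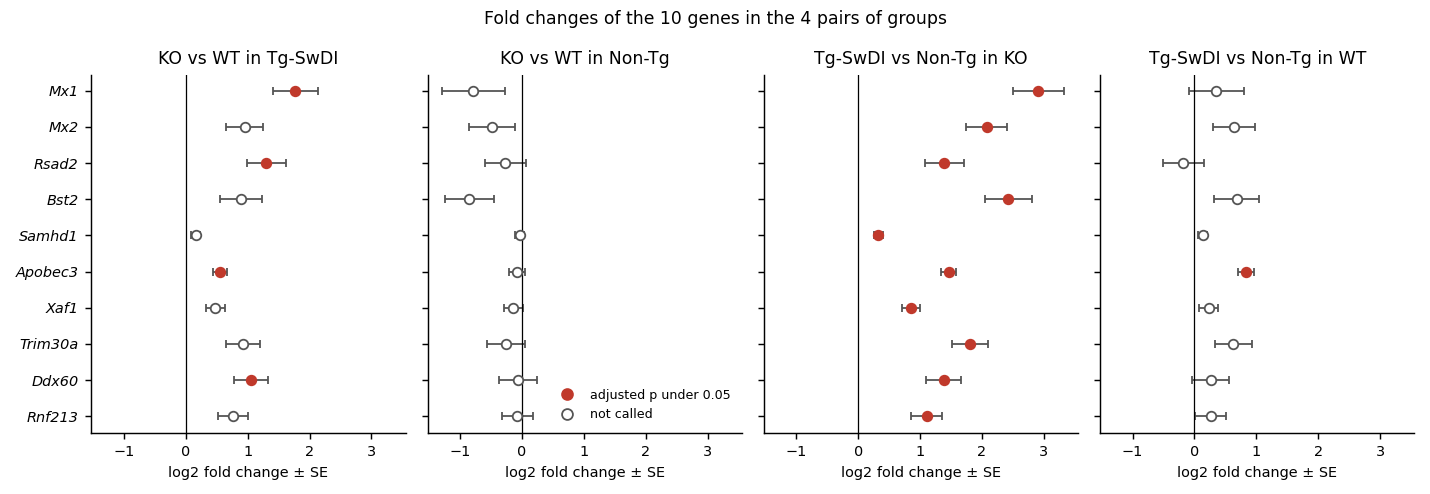
Log2 fold changes with their SE (horizontal axes, the same in all panels) of the 10 genes in the 4 pairs of groups, filled where the adjusted p is under 0.05. The filled points are 4 in KO against WT Tg-SwDI mice, 0 in KO against WT Non-Tg mice, 10 in Tg-SwDI against Non-Tg among KO mice and 1 among WT mice.

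Leaving out replicate 8 raised the number of called genes from 4 to 8, with Mx2, Xaf1, Trim30a and Rnf213 added. Over all genes, 265 of 16224 were then called higher, against 239 of 16107 with all mice. Without it, the log2 fold change was 1.09 (adjusted p = 0.0255) for Trim30a, 0.95 (adjusted p = 0.0109) for Rnf213 and 0.59 (adjusted p = 0.0257) for Xaf1. Bst2 remained uncalled at 1.08 (adjusted p = 0.0895), and Samhd1 at 0.16 (adjusted p = 0.303). Apobec3 was at 0.54 (adjusted p = 0.0177), close to its value in all mice. In the opposite direction, leaving out WT Tg-SwDI replicate 7 left only Mx1 called, among 61 of 16217 genes called higher. Over the 20 fits with 1 mouse left out, Mx1 was called in 20, Apobec3 in 19, Rsad2 in 11 and Ddx60 in 5. Rsad2 and Ddx60 thus stood at the threshold, with adjusted p-values (edgeR's quasi-likelihood test) of up to 0.100 and 0.113 in these fits.

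In each Tg-SwDI group, 4 of 5 libraries had over 1000 CPM of Ttr. With the choroid plexus level entered into the fit (this setting and the next were added once the data had been seen), 5 of the 10 genes were called, the same 4 and Trim30a. In this fit 402 of all 16107 genes were called higher, against 239 without the covariate. In the 4 KO and 4 WT Tg-SwDI libraries with Ttr over 1000 CPM, the log2 fold changes were close to those of all mice, from 0.20 in Samhd1 to 1.83 in Mx1, and none passed in this smaller set. Over all genes, 24 of 16157 were called higher there. The 2 libraries with little choroid plexus, KO replicate 2 and WT replicate 7, differed in the same direction in all 10 genes, the KO library being the higher in 52.6% of all genes.

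**Figure D3:**
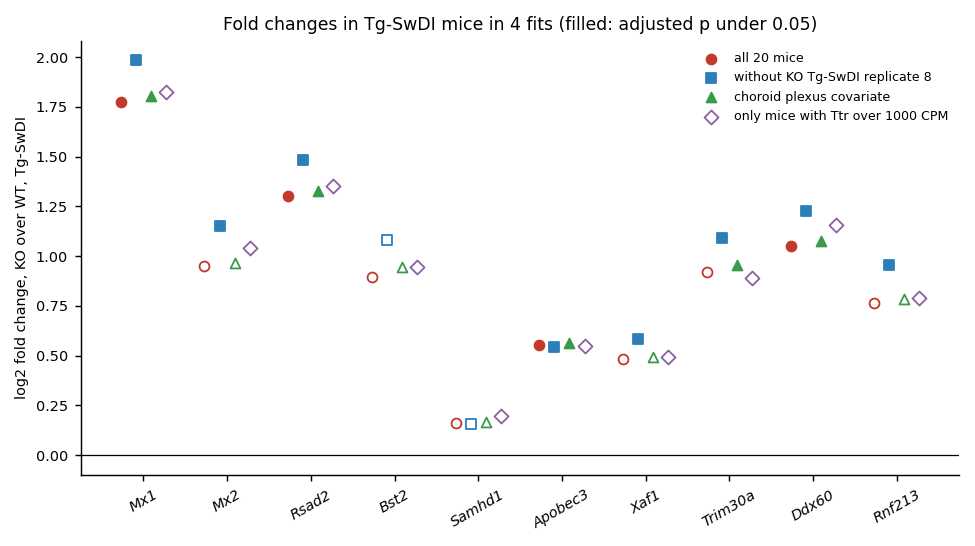
Log2 fold change of each gene between KO and WT Tg-SwDI mice (vertical axis) in 4 fits, filled where the adjusted p is under 0.05. All points lie above 0, and without KO Tg-SwDI replicate 8 the adjusted p is under 0.05 for 8 of the 10 genes, while Apobec3 stays at 0.54.

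The next comparison asked what the transgene changes when miR-34a is missing. All 10 genes rose in KO Tg-SwDI compared with KO Non-Tg mice, where 12.5% of all genes were called higher. In 6 genes (Mx1, Bst2, Samhd1, Apobec3, Xaf1 and Trim30a) the 5 Tg-SwDI mice lay above all 5 Non-Tg mice, as did 8.47% of all genes. The median log2 fold change of the 10 genes was 1.43, against 0.00 (-0.005) over all genes tested.

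The largest change was that of Mx1, with KO Non-Tg mice (replicates 1, 2, 4, 7 and 8) at 0.335, 0.427, 0.193, 0.144 and 0.145 CPM, a log2 fold change of 2.91 (SE 0.41, adjusted p = 1.05e-05). Its KO Non-Tg libraries held only 3 to 9 counts. Bst2 was at 3.35, 3.13, 1.88, 1.97 and 1.69 CPM in KO Non-Tg mice, a log2 fold change of 2.43 (SE 0.38, adjusted p = 0.000161), and even replicate 8 of the KO Tg-SwDI mice lay above them. Mx2, at 0.861, 0.901, 0.193, 0.384 and 0.435 CPM in KO Non-Tg mice, gave a log2 fold change of 2.07 (SE 0.33, adjusted p = 5.01e-05). Trim30a, at 3.97, 4.65, 2.56, 2.59 and 3.29 CPM, gave a log2 fold change of 1.80 (SE 0.29, adjusted p = 0.0002).

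Apobec3 was at 3.97, 3.32, 2.90, 2.59 and 2.999 CPM in KO Non-Tg mice, with a log2 fold change of 1.46 (SE 0.12, adjusted p = 8.52e-10), the lowest adjusted p of the 10. Rsad2 was at 2.68, 3.41, 2.22, 1.30 and 1.16 CPM and rose by a log2 fold change of 1.39 (SE 0.32, adjusted p = 0.00393). Ddx60 was at 1.29, 1.85, 1.45, 1.30 and 0.968 CPM, with a log2 fold change of 1.38 (SE 0.28, adjusted p = 0.00116). In Rsad2, Ddx60, Rnf213 and Mx2, replicate 8 of the KO Tg-SwDI mice fell within the range of the KO Non-Tg mice. Rnf213 was at 17.6, 20.01, 13.4, 13.05 and 13.9 CPM, with a log2 fold change of 1.10 (SE 0.25, adjusted p = 0.00414), and Xaf1 at 4.88, 4.13, 4.15, 4.32 and 2.999 CPM, with a log2 fold change of 0.85 (SE 0.15, adjusted p = 0.000194). Samhd1 changed least, from 17.1 ± 1.24 CPM (SD, n = 5) to 21.4 ± 1.87 CPM (SD, n = 5), a log2 fold change of 0.32 (SE 0.07, adjusted p = 0.00218).

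Choroid plexus is not balanced here, since all 5 KO Non-Tg libraries had little of it and 4 of 5 KO Tg-SwDI libraries had much. With the choroid plexus level as a covariate, 7 of the 10 genes were called, and Rsad2, Samhd1 and Rnf213 were not, at log2 fold changes of 1.11, 0.22 and 0.87 (adjusted p = 0.0725, 0.0974 and 0.0684, edgeR's quasi-likelihood test). Over all 16107 genes, 1071 were called higher in this fit, against 2013 without the covariate. The 1 KO Tg-SwDI mouse with little choroid plexus, replicate 2, lay above every KO Non-Tg mouse in 10 of 10 genes and in 25.4% of all genes. Its Trim30a was 12.4 CPM, its Bst2 8.71 CPM and its Mx1 1.72 CPM. With replicate 8 left out, all 10 genes were called, and 1904 of 16224 genes were called higher.

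Among miR-34a WT mice, the same question about the transgene had a different count. Only Apobec3 rose in WT Tg-SwDI compared with WT Non-Tg mice, where 3.94% of all genes were called higher. It was at 5.73, 5.68, 6.14, 6.76 and 5.41 CPM against 4.40, 2.93, 3.48, 2.80 and 3.05 CPM in WT Non-Tg mice (replicates 2, 3, 4, 6 and 7), without overlap, which 5.10% of all genes showed upward. This was a log2 fold change of 0.83 (SE 0.12, adjusted p = 3.4e-05), and it was called in every alternative run. Of the other genes, 8 had higher and 1, Rsad2, had lower estimates in Tg-SwDI mice. The median of the 10 genes was 0.31, against 0.00 over all genes tested.

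The estimates that missed the threshold in WT mice included Bst2, at 6.15, 8.18, 5.79, 9.13 and 5.55 CPM in WT Tg-SwDI against 4.87, 2.63, 6.25, 1.70 and 6.21 CPM in WT Non-Tg mice, with a log2 fold change of 0.68 (SE 0.36, adjusted p = 0.402). Trim30a was at 4.16, 2.28, 5.12, 2.30 and 6.44 CPM in WT Non-Tg mice and gave a log2 fold change of 0.63 (SE 0.29, adjusted p = 0.317). Mx2, at 0.709, 0.446, 1.22, 0.550 and 0.955 CPM in WT Non-Tg mice, gave a log2 fold change of 0.64 (SE 0.33, adjusted p = 0.38). The groups overlapped in all 3 genes. Mx1 (0.35, SE 0.44), Samhd1 (0.13, SE 0.07), Xaf1 (0.23, SE 0.15), Ddx60 (0.26, SE 0.30), Rnf213 (0.26, SE 0.25) and Rsad2 (-0.18, SE 0.33) did not pass either (log2 fold changes in brackets). In the 4 Tg-SwDI and 3 Non-Tg WT libraries with Ttr over 1000 CPM, Apobec3 was again called, with a log2 fold change of 0.74 (adjusted p = 0.00522, edgeR's quasi-likelihood test), and the other 9 were not. Bst2 was then at 0.34 and Trim30a at 0.29.

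Choroid plexus moved with the genes among the WT Non-Tg mice themselves. In 9 of the 10 genes, all but Mx1, the 3 mice with Ttr over 1000 CPM lay above both other mice, as they did in 16.4% of all genes. Bst2, for example, was at 4.87, 6.25 and 6.21 CPM in replicates 2, 4 and 7 and at 2.63 and 1.70 CPM in replicates 3 and 6. The same split gave 2 of 10 genes among WT Tg-SwDI mice (21.7% of all genes) and 1 of 10 among KO Tg-SwDI mice (18.8%), where a single library made up the low side.

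Without the transgene, none of the 10 genes passed between miR-34a KO and WT mice. Over all genes 0.00% were called higher and none was called lower by edgeR's quasi-likelihood test, while 1302 of 16107 had an unadjusted p under 0.05 and DESeq2 called 7. Of the 10 genes, 1, Bst2, had an unadjusted p under 0.05, and DESeq2 called none. All 10 estimates were lower in KO Non-Tg than in WT Non-Tg mice, with log2 fold changes that ranged from that of Bst2 (-0.85, SE 0.40) and Mx1 (-0.78, SE 0.51) to that of Samhd1 (-0.03, SE 0.07). Ddx60 and Rnf213, the 2 genes with a miR-34a 8mer site shown above, were at 1.37 ± 0.320 CPM (SD, n = 5) in KO against 1.43 ± 0.584 CPM (SD, n = 5) in WT and at 15.6 ± 3.06 CPM (SD, n = 5) against 16.4 ± 4.45 CPM (SD, n = 5). The log2 fold changes of Ddx60 (-0.07, SE 0.31) and Rnf213 (-0.08, SE 0.25) were well within the spread between mice, and both turned positive with the choroid plexus level as a covariate, as did those of Samhd1 and Apobec3. The 5 KO Non-Tg libraries all had little choroid plexus against 2 of 5 WT Non-Tg libraries.

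The interaction asked whether the change with the transgene differs between miR-34a KO and WT mice. All 10 estimates were positive, and none passed in edgeR's quasi-likelihood test, where 0.428% of all genes were called in this direction. Unadjusted p-values were under 0.05 for 9 of the 10, Samhd1 being the exception, and for 2821 of all 16107 genes. The nearest was Mx1, a log2 difference of 2.56 (SE 0.63, adjusted p = 0.0562), followed by Apobec3, a log2 difference of 0.63 (SE 0.17, adjusted p = 0.0767), and Rsad2, a log2 difference of 1.57 (SE 0.46, adjusted p = 0.106). DESeq2 called 3 (Rsad2, Bst2 and Apobec3) among 482 of all genes, and edgeR's likelihood ratio test called 3 (Mx1, Rsad2 and Bst2) among 263, against 98 of all genes in the quasi-likelihood test. Without KO Tg-SwDI replicate 8, the quasi-likelihood test called Mx1, Mx2 and Rsad2 among 209 of all genes. The different counts in KO and WT mice, 10 and 1, are therefore not shown gene by gene to be a difference of effect.

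**Figure D4:**
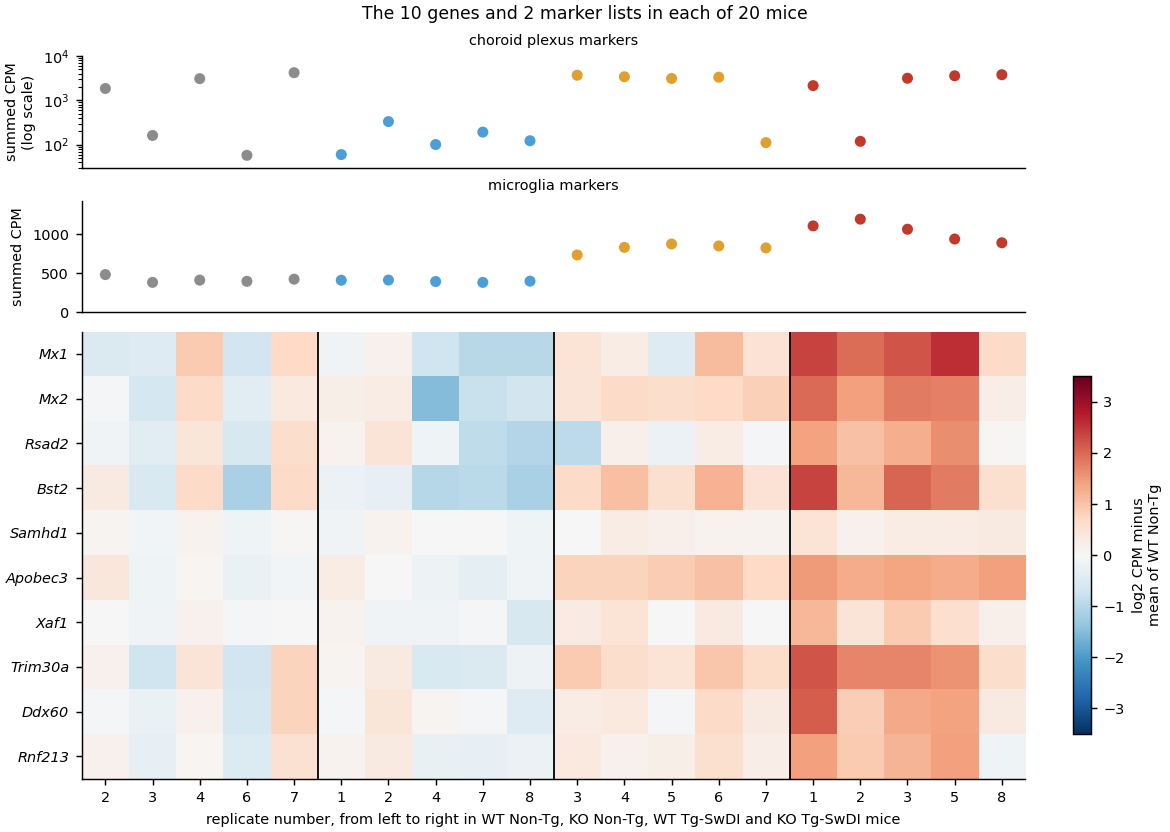
Summed CPM of the choroid plexus markers (log axis) and the microglia markers in each mouse, above a heat map of log2 CPM of the 10 genes minus the mean of the WT Non-Tg mice, with the replicate numbers along the horizontal axis. The 4 KO Tg-SwDI mice other than replicate 8 are raised in most genes, whereas Apobec3 is raised in all 5 and in the WT Tg-SwDI mice, and microglia markers sum to 735 to 875 CPM in WT and 891 to 1194 CPM in KO Tg-SwDI mice.

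Within groups, most of the 10 genes varied together from mouse to mouse, Apobec3, Samhd1 and Xaf1 less so. The correlation of deviations from the group mean of log2 CPM over the 20 mice had a median of 0.623 over the 45 pairs, with a range of 0.177 to 0.883. The median was 0.75 over the 36 pairs without Samhd1, and the same without Apobec3 or without Xaf1. No median over all genes is given here for comparison. The closest pair was Trim30a with Rnf213 (r = 0.883), followed by Bst2 with Trim30a (r = 0.873), and the least alike were Apobec3 and Ddx60 (r = 0.177). These values are descriptions over mice that share depth and tissue content, and without KO Tg-SwDI replicates 1 and 8 the median was 0.586. Xaf1 then fell from 0.530 to 0.240 with Trim30a and from 0.572 to 0.243 with Rnf213. Its r with Apobec3 rose from 0.279 to 0.313. In KO Tg-SwDI mice, replicate 1 was the highest in 7 genes and replicate 8 the lowest in 8, the exceptions of replicate 8 being Apobec3 and Samhd1.

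By the same measure, the gene outside the list most like each of the 10 was Ddx58 for Rnf213 (r = 0.958), Usp18 for Mx2 (r = 0.937), Slfn5 for Trim30a (r = 0.936), Irf9 for Bst2 (r = 0.935), Oasl2 for both Rsad2 (r = 0.892) and Ddx60 (r = 0.881), and Irf7 for Mx1 (r = 0.881). Apobec3 was most like Rps6ka1 (r = 0.864), Xaf1 most like Metrnl (r = 0.844) and Samhd1 most like Lgals9 (r = 0.778). Each was the highest of all genes tested over 20 mice, and with a smaller prior count of 0.5 it was the same gene for 9 of the 10, Mx1 then being most like Ifit1.

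The other genes of the pathway were taken from lists by role. The ligands Ifnb1, Ifna2 and Ifna4 had at most 1 count in any library and 2, 1 and 0 counts in all, too few to test. Of 13 receptor and signalling genes, 3 rose in KO compared with WT Tg-SwDI mice: the receptor chain Ifnar2 (0.40, adjusted p = 0.025) and both Stat2 (0.41, adjusted p = 0.0232) and Irf9 (0.73, adjusted p = 0.0267), which bind the ISRE together. The regulator Irf7 (1.54, adjusted p = 0.0712) did not pass. None of the 13 fell. Among KO mice, 8 of the 13 rose with the transgene, and among WT mice none did. The interaction was called for Ifnar2 alone. Ifnar1, the other receptor chain, had a value of -0.03, adjusted p = 0.822.

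Of 23 other antiviral effectors, 22 matched a symbol in the annotation and 21 were tested. Of these, 4 rose in KO compared with WT Tg-SwDI mice: Ifit2 (0.56, adjusted p = 0.0113), which binds viral RNA, Zc3hav1 (0.48, adjusted p = 0.0496), which directs its decay, the kinase Eif2ak2 (0.68, adjusted p = 0.0391), which halts translation, and Oasl2 (1.66, adjusted p = 0.0323). None fell. Among KO mice, 16 rose with the transgene, and among WT mice 1, Ch25h, rose. Of 12 paralogues and neighbours of the 10 genes, 9 were tested and 5 rose in KO Tg-SwDI mice: Trim30d (0.94, adjusted p = 0.00635) and Trim34a (0.73, adjusted p = 0.0435) beside Trim30a, and the RNA sensors Ddx58 (0.71, adjusted p = 0.0496), Ifih1 (0.66, adjusted p = 0.0316) and Dhx58 (0.80, adjusted p = 0.0432). All 9 rose with the transgene among KO mice, Trim5 alone among WT mice, and the interaction was called for Trim30d. Cmpk2, the neighbour of Rsad2, did not pass between KO and WT Tg-SwDI mice (0.26, adjusted p = 0.103). The values in brackets are log2 fold changes and adjusted p-values of KO over WT Tg-SwDI mice (edgeR's quasi-likelihood test). Median log2 fold changes were 0.40 for the signalling genes, 0.46 for the effectors and 0.66 for the paralogues and neighbours.

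Markers of cell types moved with some of these results. The 10 microglia markers, none of them at 0, summed to 383 to 483 CPM in WT Non-Tg, 383 to 413 CPM in KO Non-Tg, 735 to 875 CPM in WT Tg-SwDI and 891 to 1194 CPM in KO Tg-SwDI mice. All 10 rose with the transgene in both WT and KO mice, and 3 of 10 rose in KO compared with WT Tg-SwDI mice. The median of their log2 fold changes in that comparison was 0.29. KO Tg-SwDI replicate 8 had the lowest sum of its group and replicate 2 the highest. The 5 astrocyte markers summed to 1359 to 1606 CPM in Non-Tg, 2192 to 2666 CPM in WT Tg-SwDI and 2525 to 3798 CPM in KO Tg-SwDI mice, and 1 of them rose in KO compared with WT Tg-SwDI mice. With the transgene, 3 of the 5 rose in both KO and WT mice. The part of these cells in the changes of the 10 genes was not tested.

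The 6 border macrophage markers summed to 7.08 to 18.8 CPM over all mice, and none passed in any pair of groups. No marker of T cells (6), B cells (4), NK cells (4) or granulocytes (4) reached the filter on low counts, with at most 15 counts in any library. The NK cell markers summed to 0.410 to 0.483 CPM in KO against 0.147 to 0.376 CPM in WT Tg-SwDI mice, from at most 7 counts of a marker in a library, and the T cell markers to 0.773 to 1.89 CPM against 0.662 to 1.45 CPM. The 4 red blood cell markers summed to 1.30 to 21.3 CPM. Of 5 endothelial markers, 1 rose in KO compared with WT Tg-SwDI mice, and sums were 171 to 219 CPM. Oligodendrocyte (5) and hippocampal neuron (6) markers, at 3978 to 6275 CPM and 2063 to 3086 CPM, had none called between KO and WT Tg-SwDI mice. With the transgene among KO mice, 3 of the 5 oligodendrocyte markers rose and no neuron marker passed. The neuron markers of the labelled tissue were thus high in every library. Their highest sum, 3086 CPM, was that of KO Tg-SwDI replicate 8, and the other mice reached at most 2453 CPM.

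Part of the counts cannot be assigned with certainty. Stretches of 100 bases shared with transcripts of other genes made up 4.66% of those of Apobec3 (6 genes, among them D730005E14Rik on the same strand), 4.41% of those of Trim30a (Trim30d), 2.63% of those of Rnf213 (A930037H05Rik on the other strand), 0.193% of those of Samhd1 and none of those of the other 6 genes. How reads matching several genes were counted is not given in the sources used here, so that Trim30a and Trim30d in particular are uncertain to this extent.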

How the data were processed

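RNA was extracted from the hippocampus of 20 mice with the Direct-zol kit and stranded mRNA libraries were sequenced on the DNBSEQ platform. The authors aligned the reads to mm10 (STAR), assigned them to ENSEMBL genes (featureCounts) and deposited raw counts, which are not normalized. Versions and the strand and multi-mapping settings are not given in the sources used here. Symbols and positions came from GENCODE M21 (38872 of 39056 identifiers, 99.5%).

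Counts were scaled by TMM, low genes were removed (filterByExpr, at least 10 counts in as many mice as a group holds and 15 in all), and the 16107 genes left were fitted with edgeR 4.0.16 (limma 3.58.1, R 4.3.3) as 4 group means with robust quasi-likelihood (16 residual degrees of freedom). P-values were adjusted over all these genes by the Benjamini-Hochberg method at 0.05, and SE is the log2 fold change divided by the root of F. DESeq2 1.42.0 and Python 3.11.15 were also used. Each mouse is labelled as a separate sample of its group, and no 2 libraries of the same group agreed within sampling noise. Libraries of different groups were not compared in this way. Libraries held 19549622 to 21066868 counts, so that genes with few counts, such as Mx1, carry a larger counting error. The fit was tested on simulated data, where 200 of 16107 genes were made to differ between KO and WT Tg-SwDI mice. Simulated doublings were called in 89% of cases. Where the simulated log2 fold change was only 0.5, the share called was 65%. A further 18 genes were called although no difference had been put into them. In this simulation they made up a larger share of the calls than the 0.05 aimed at. Calls near the threshold, such as those of Rsad2 and Ddx60, may therefore be too liberal.

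The 10 genes, the pathway and marker lists and the tests were chosen with earlier results of these data known. Genes named are the 10 members, listed pathway genes called in KO compared with WT Tg-SwDI mice (others of these lists named beside them, Irf7, Ifnar1, Cmpk2, Ch25h and Trim5, after their values were seen) and the gene most like each member by Pearson's r of deviations from the group mean of log2 CPM (prior count 2). Shfl matched no symbol, and some genes of these lists are not reported here by name. Alternatives were DESeq2, RLE factors, library size alone, no filter, a filter of mean CPM of at least 1, exactTest with dispersions of 20 or 10 mice, a likelihood ratio test for the interaction, the 10 compared mice alone, the replicate number as a block and each mouse left out. The choroid plexus covariate (mean log2 CPM of Ttr, Kl, Folr1, Clic6 and Kcnj13) and the 11 libraries with Ttr over 1000 CPM were added after seeing the data. Promoter and miRNA sequences are from RefSeq (GRCm38.p6), and seed matches were sought in the longest coding transcript of GENCODE M21.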

Additional observations from a re-analysis of the deposited data

How the results depend on the processing

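The number of the 10 genes called between KO and WT Tg-SwDI mice, 4, was 7 with DESeq2, 7 with exactTest on dispersions of the 10 mice, 2 with library size alone, 2 without the filter, 2 in the 10 compared mice alone and 0 in the libraries with Ttr over 1000 CPM, where fewer mice were tested. Over all genes, in either direction, these fits called 733, 315, 217, 268, 58 and 26 in the same order, against 320 in the main fit. The number of the 10 genes called was 1 to 8 with 1 mouse left out: 8 without KO Tg-SwDI replicate 8 (323 of all genes), 1 without WT Tg-SwDI replicate 7 (78 of all genes), and 2 without KO Non-Tg replicate 4, WT Tg-SwDI replicates 3, 4, 5 or 6, or KO Tg-SwDI replicates 1, 3 or 5. With the replicate block (9 residual degrees of freedom) it was 0, and 8 of all genes were called against 320. The labels do not say whether equal replicate numbers mark a shared litter, cage or day. Same-numbered mice deviated together with r from -0.40 to 0.15 over 12 pairs, and some groups share only 2 numbers. So few pairs cannot decide whether the mice are paired. All 10 estimates stayed positive in every alternative that gave them a value.

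For the interaction, 0 genes were called, against 3 with DESeq2, 3 with the likelihood ratio test and 0 to 3 with 1 mouse left out (3 without KO Tg-SwDI replicate 8, 2 without KO Tg-SwDI replicate 2, and 1 without WT Non-Tg replicates 3 or 6, KO Non-Tg replicate 2 or WT Tg-SwDI replicate 6). DESeq2 gave no adjusted p for Mx1 and Mx2 there. In Tg-SwDI against Non-Tg mice the calls were 7 to 10 genes in KO and 1 in WT mice in all alternatives (9 of 9 under the stricter filter, which left out Mx1), and between KO and WT Non-Tg mice they were 0. Reversed estimates, none of them called, were those between KO and WT Non-Tg mice of Ddx60 (-0.201 to 0.196 with 1 mouse left out, positive without WT Non-Tg replicate 7 or KO Non-Tg replicate 8, and 0.207 with the choroid plexus covariate), Rnf213 (-0.184 to 0.073, positive without WT Non-Tg replicate 7, and 0.113), Apobec3 (-0.175 to 0.042, positive without WT Non-Tg replicate 2, and 0.005) and Samhd1 (0.046 with the covariate), and that of Mx1 between WT Tg-SwDI and Non-Tg mice (-0.043 in the libraries with Ttr over 1000 CPM). The cause was not tested. Over all genes, calls between KO and WT Tg-SwDI mice ranged from 8 (block) to 733 (DESeq2), and for the interaction from 14 (without KO Non-Tg replicate 7) to 500 (without KO Tg-SwDI replicate 2), against 98. The choice of 8mers alone left the 2 genes with a seed site as they were. Depth limits Mx1 most, with 3 to 53 counts a library.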
